A study of Mus musculus with 2 samples.

Results

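The nuclei described here are glutamatergic nuclei of mouse entorhinal cortex that were selected on 5 genes, Stac, Ndst4, L3mbtl4, Vat1l and Dnah9, and they number 268 of the 12918 nuclei in the data. They come from male APP/PS1 mice, a transgenic line that deposits amyloid in the brain. Both groups carried these transgenes, and no mice without them were sequenced. One library pooled the tissue of 5 mice given OLE (N-oleoyl-leucine, C18:1-Leu) in the drinking water at 25 mg/kg/day, and the other pooled 5 mice given the DMSO vehicle (0 mg/kg/day). Treatment ran from 15 to 18 months of age, and the mice were 18 months old at collection. The measurement is the number of unique molecular identifiers (UMIs, each marking 1 captured RNA molecule) per gene and nucleus.

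The members were chosen in 2 steps. Nuclei were first gated as glutamatergic, with at least 6000 UMIs, at least 2 UMIs of Slc17a7 (the vesicular glutamate transporter of cortical excitatory neurons) and at most 3 UMIs of Gad1 and Gad2 together (the enzymes that make GABA). This gate held 3844 nuclei, 1741 from vehicle and 2103 from OLE. Each of the 5 genes was then scaled to a z-score over the gated nuclei, and nuclei with a mean z of at least 1 became members, 135 from vehicle and 133 from OLE. Because these genes chose the members, their levels in members describe the rule and are not a finding, and no member-against-rest difference below was tested. With a single pooled library per condition there is also no replicate check between OLE and vehicle. Intervals are exact 95% intervals for counting error alone, and they leave out the spread between nuclei, mice and preparations.

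The genes of the rule have unrelated roles. Stac encodes an adaptor protein that binds L-type calcium channels. Ndst4 encodes an enzyme that sets the sulfation of heparan sulfate chains, and Ndst3 is a relative. L3mbtl4 belongs to the malignant brain tumor domain proteins that read histone methylation. Vat1l is related to a synaptic vesicle membrane protein, and Dnah9 encodes a motor protein of motile cilia. In the mouse genome (GRCm38, GENCODE vM21) all of them are protein-coding: Stac lies on chromosome 9 from 111561437 to 111690348, Ndst4 on chromosome 3 from 125404076 to 125728899, L3mbtl4 on chromosome 17 from 68273797 to 68780086, Vat1l on chromosome 8 from 114205612 to 114374071 and Dnah9 on chromosome 11 from 65831282 to 66168551. The authors aligned reads to a pre-mRNA reference, which takes in introns, so UMIs may fall anywhere within these spans. As background, deep-layer excitatory neurons are sorted by where their axons go. Extratelencephalic neurons of layer 5 send axons out of the cortex to subcortical targets and depend on the transcription factors Fezf2 and Bcl11b, whereas intratelencephalic neurons connect cortical areas. The entorhinal cortex links the neocortex with the hippocampus, and the neighbouring subiculum is a main output of the hippocampus.

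Members were deeper than the rest of the gate. The median was 29768 UMIs and 5783 genes in vehicle members against 21763 UMIs and 5034 genes in the other gated vehicle nuclei, and 26135 UMIs and 5665 genes in OLE members against 17517.5 UMIs and 4741 genes in the other gated OLE nuclei. Member UMIs summed to 4274225 in vehicle and 3774293 in OLE. The libraries shared 14 barcodes, of which none belonged to a member in both, and 1 member carried a barcode also found in the other library. No doublet caller was run on these nuclei. All members carried Slc17a7, as the gate requires, with 2 to 15 UMIs and a median of 4 in vehicle and 2 to 23 UMIs and a median of 5 in OLE.

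The mean z of the 5 genes fell off without a gap at the threshold. Members ran from 1.00 to 3.88 with a median of 1.65, and the other gated nuclei from -0.400 to just under 1 with a median of -0.267. Within 0.1 of the threshold there were 21 nuclei inside and 34 outside. Among members, 27 had UMIs of all 5 genes, 118 of 4, 103 of 3, 18 of 2 and 2 of only 1. Among the other gated nuclei, 2 had all 5 and 1724 had none.

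**Figure D1:**
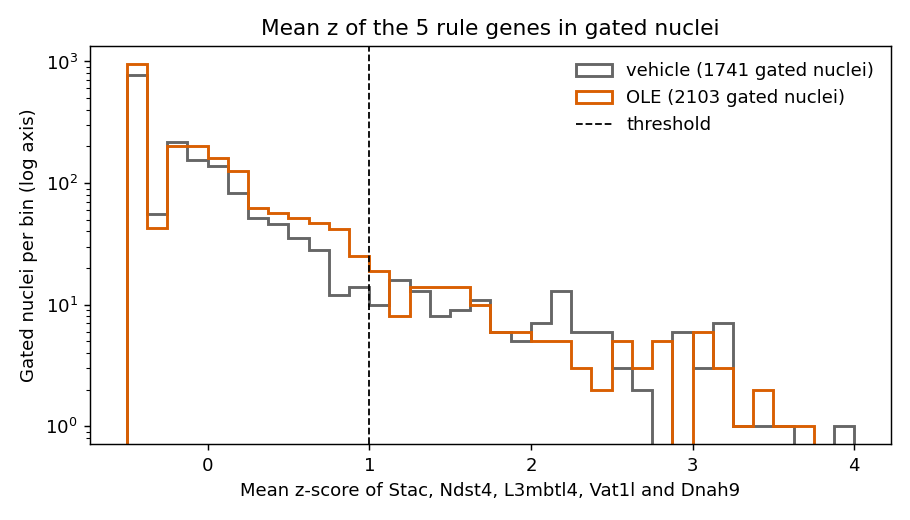
Number of gated nuclei (log axis) by mean z of the 5 rule genes, for vehicle (grey) and OLE (orange), with the threshold of 1 dashed. Counts continue through the threshold without a gap, and the OLE curve lies above the vehicle curve just below it.

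Members made up 7.75% of gated vehicle nuclei (exact interval 6.54 to 9.11%) and 6.32% of gated OLE nuclei (5.32 to 7.45%). The difference was -1.43 percentage points with an interval from -3.12 to 0.225, which includes 0. Its direction turned at a threshold of 0.75, where members were 9.25% of vehicle and 9.51% of OLE nuclei. Gated OLE nuclei were shallower, and among nuclei with at least 10000 UMIs the shares were 8.20% (6.89 to 9.67%) and 7.25% (6.06 to 8.60%). These intervals cover counting error alone, and with 1 library per condition a difference in share between OLE and vehicle could not be tested.

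Stac had 709 UMIs in vehicle members, or 166 counts per 1000000 UMIs (CPM, 154 to 179), and 650 in OLE members, or 172 CPM (159 to 186). In a single nucleus it ranged from 0 to 30 UMIs in vehicle and from 0 to 32 in OLE, with a median of 3 in both. It was found in 79.3% of vehicle and 82.0% of OLE members, against 6.66% and 6.85% of the other gated nuclei. With every nucleus thinned to 6000 UMIs, those shares were 46.7% and 52.6% in members against 2.80% and 3.25% in the rest. Oligodendrocyte nuclei, taken as a cell type outside the neuronal classes (at least 5 UMIs of Mog, Mag, Mobp and Mal with none of Slc17a7, Gad1 or Gad2), gave Stac in 1.02% of 391 vehicle and 0.829% of 362 OLE nuclei at median depths of 3669 and 3254 UMIs. The Stac level in other gated nuclei was 5.32 CPM in vehicle and 5.31 in OLE.

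Ndst4 was the most uneven of the rule genes. It reached 357 CPM (340 to 376) in vehicle members and 344 (326 to 363) in OLE members, from 1528 and 1299 UMIs. A single nucleus held up to 116 UMIs in vehicle and 115 in OLE, yet the medians were 2 and 1, and 84 of 135 vehicle and 78 of 133 OLE members had any. Its level was 12.4 CPM in other gated vehicle nuclei and 18.5 in other gated OLE nuclei. In oligodendrocyte nuclei it stood at 32.0 (23.7 to 42.3) and 30.8 (22.1 to 41.8) CPM, above its level in the other gated nuclei of the same library.

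L3mbtl4 stood at 165 CPM (153 to 178) in vehicle and 170 (157 to 184) in OLE members, with up to 41 and 58 UMIs in a nucleus and a median of 1 in both. Vat1l stood at 133 (122 to 144) and 137 (125.2 to 149), with a median of 3 UMIs in both libraries. Dnah9 was at 161 (149 to 174) in vehicle and 126 (115 to 138) in OLE members, with medians of 3 and 2 UMIs. The other gated nuclei had 14.3 and 13.7 CPM of L3mbtl4, 15.4 and 16.6 of Vat1l, and 19.3 and 25.2 of Dnah9, in vehicle and OLE. The log2 ratio of OLE over vehicle for Dnah9 was -0.35 in members and 0.39 in the other gated nuclei, and the value in members is set in part by the rule.

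Each rule gene was also read in nuclei chosen by the remaining 4, as a description only, since all 5 genes were picked together. Stac was then 16.4 times higher in the chosen than in the other nuclei of vehicle and 15.2 times higher in OLE. For Ndst4 the folds were 13.3 and 7.27, for Vat1l 6.83 and 5.55, for Dnah9 6.69 and 3.44, and for L3mbtl4 5.33 and 4.06. As a description over the same nuclei, the Pearson correlation of the z-scores of Ndst4 and L3mbtl4 was 0.055 over the 3844 gated nuclei and -0.51 over the 268 members. Stac and L3mbtl4 had 0.18 and -0.38. Choosing nuclei by a mean tends to push correlations within the chosen set downwards, and the points share libraries and differ in depth.

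To describe how members differ among themselves, they were clustered without the rule genes (Ward's method on 10 components of 1000 variable genes). The number of clusters, 8, was set after the data had been seen. The clusters are called by number, in order of size, and by their leading genes, and no cell type name is given to them. Cluster 1 (77 nuclei) was led by Erg and Alk, cluster 2 (44) by Fn1 and Gfra1, cluster 3 (34) by Sema3a and Chn2, cluster 4 (28) by Npsr1 and Thsd7b, cluster 5 (27) by Klhl1 and Megf11, cluster 6 (25) by Dach1 and Pld5, cluster 7 (18) by Gm32647 and Abi3bp, and cluster 8 (15) by Nxph1 and Sox6. Both libraries were present in every cluster, with 35 vehicle and 42 OLE nuclei in cluster 1, 20 and 24 in cluster 2, 24 and 10 in cluster 3, 18 and 10 in cluster 4, 14 and 13 in cluster 5, 15 and 10 in cluster 6, 5 and 13 in cluster 7, and 4 and 11 in cluster 8.

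The 5 rule genes, which took no part in the clustering, were combined differently from cluster to cluster. Cluster 2 had the highest levels of Stac (384 CPM), Ndst4 (988) and Dnah9 (320), but L3mbtl4 was at 4.84 CPM, 0.345 times its level in the other gated nuclei. Cluster 1 showed the opposite pair, with L3mbtl4 at 290 and Ndst4 at 38.8 CPM. Dnah9 was nearly missing from cluster 3, at 1.94 CPM, whereas Ndst4 reached 467 there. Cluster 6 held 221 CPM of Stac and 180 of Vat1l, but 11.9 of Ndst4, which is 0.766 times its level in the other gated nuclei. Cluster 5 combined Ndst4 at 757 and Dnah9 at 242 with L3mbtl4 at 53.2 and Vat1l at 54.5. Only Stac and Vat1l were above the level of the other gated nuclei by at least 2 times in all 8 clusters, with Vat1l at 2.72 times in cluster 3 and Stac at 14.5 times in cluster 4 as their lowest values.

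**Figure D2:**
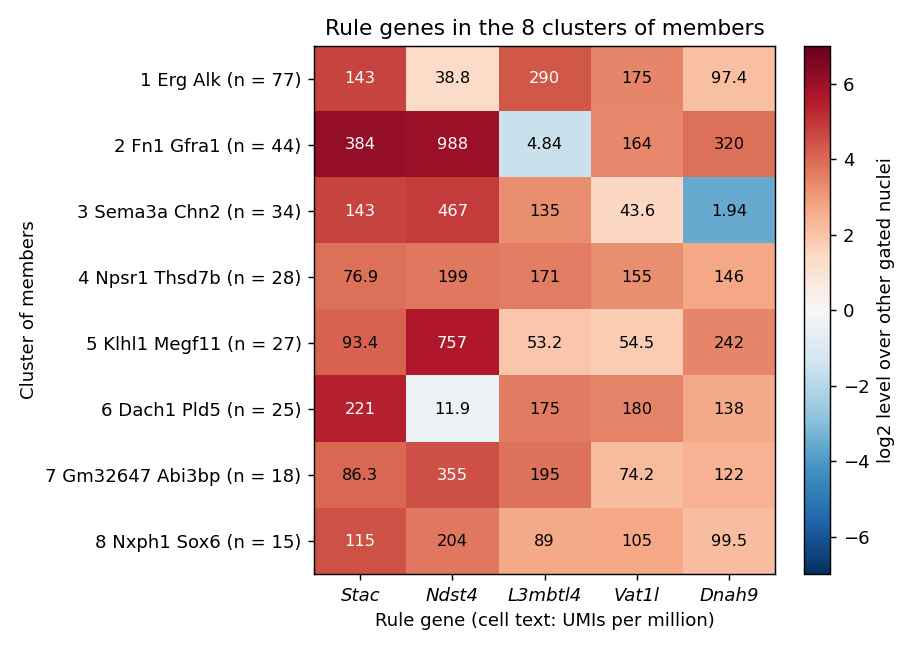
Levels of the 5 rule genes (columns) in the 8 clusters of members (rows), coloured by log2 level over the other gated nuclei, with CPM written in each cell. Stac is red in every cluster, L3mbtl4 is blue in cluster 2, Dnah9 in cluster 3, and Ndst4 is near the background in cluster 6.

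Markers of layer 5 extratelencephalic neurons were high in 4 of the 8 clusters. Of the 12 genes on this list, 9 were at least 2 times their level in the other gated nuclei in cluster 1, 9 in cluster 4, 7 in cluster 2 and 7 in cluster 5, and 2 to 4 in each of the remaining clusters. No UMI minimum was set for these counts, and the share of all genes past 2-fold within a cluster is not given. Some calls rest on very low levels, such as Fam84b at 1.88 CPM in cluster 4 and Chrna6 at 1.49 in cluster 6. Clusters 1, 2, 4 and 5 hold 176 members (65.7%), 87 from vehicle and 89 from OLE. Fezf2, which specifies subcortical projection neurons, was at 42.2 to 75.3 CPM in these clusters, lowest in cluster 4 and highest in cluster 1, against 14.9 in the other gated nuclei. In clusters 3, 6 and 7 it was at 0.970, 1.49 and 2.01 CPM, below that level, and in cluster 8 at 26.2. Parm1, a membrane glycoprotein, divided the clusters in the same way, from 317 to 414 CPM in those 4 and from 10.7 to 78.6 in the others. Etv1, a transcription factor of layer 5, was at 245 to 447 CPM in those 4 clusters and at 10.4 to 126 in the others.

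Bcl11b, a partner of Fezf2, was spread more widely, from 94.3 CPM in cluster 8 to 426 in cluster 2, and exceeded 78.7, its level in the other gated nuclei, in all 8 clusters.

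Subiculum markers were spread over several clusters. Of the 5 list genes, 4 were raised by the 2-fold measure in cluster 2 (Fn1, Nts, Slc17a6 and Teddm3), 3 in cluster 4 (Fn1, Nts and Teddm3) and 2 in cluster 5 (Fn1 and Teddm3), and the summed level was 17.1, 5.404 and 2.69 times that of the other gated nuclei. Most of each sum was Fn1, at 646 of 807 CPM in cluster 2, 156 of 255 in cluster 4 and 97.3 of 127 in cluster 5. Teddm3 was highest in cluster 4, at 43.1 CPM, followed by 33.8 in cluster 1, 22.1 in cluster 5 and 11.3 in cluster 2. Fn1, fibronectin, stood at 646 CPM in cluster 2, 156 in cluster 4 and 97.3 in cluster 5, and at 0 to 20.9 in the other clusters. Nts, the neuropeptide neurotensin, was at 85.4 CPM in cluster 2 and 17.8 in cluster 4. Fn1 and Nts were among the leading genes of cluster 2, so their height there also reflects how it was found. Reln, the extracellular protein reelin and a marker of superficial entorhinal stellate neurons, showed the reverse, at 3.22 CPM in cluster 2 and 1737 in cluster 3. Robo1, a receptor for Slit guidance cues, was at 54.0 to 4571 CPM across the clusters, with cluster 2 lowest and cluster 3 highest. Rorb, a transcription factor, and Moxd1 were highest in cluster 6, at 425 and 285 CPM, against 175 and 7.41 in the other gated nuclei. Both genes, like Reln in cluster 3, were among the leading genes of the cluster.

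**Figure D3:**
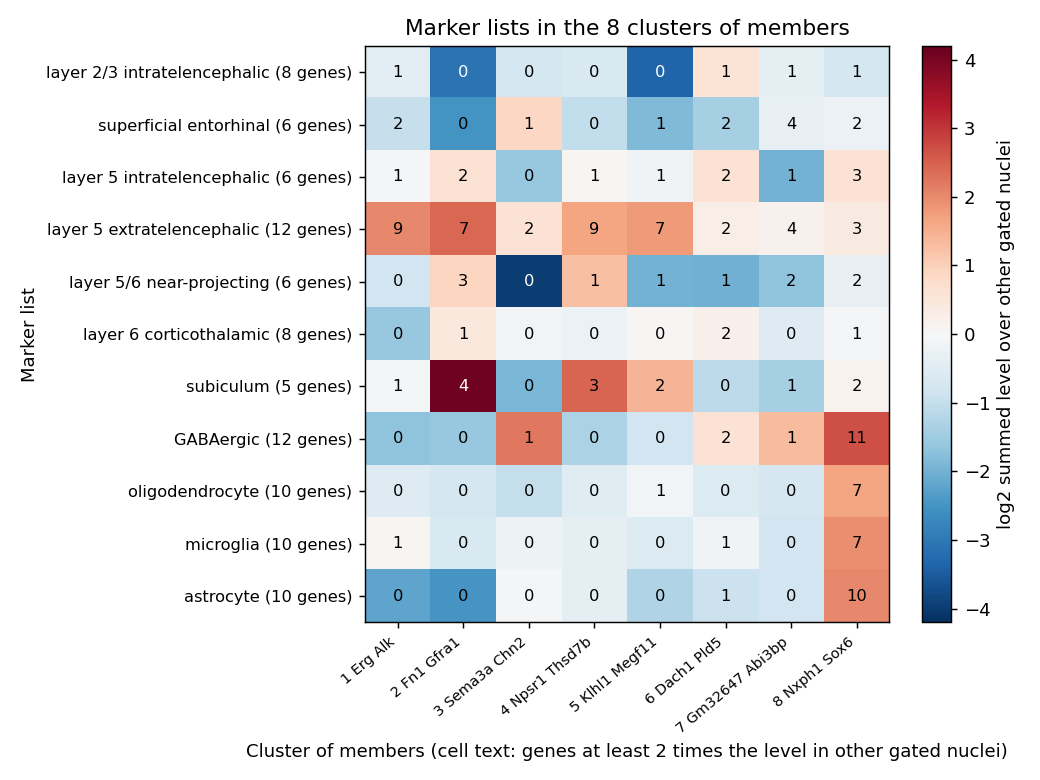
Summed level of each marker list (rows) in the 8 clusters of members (columns), as log2 over the other gated nuclei. The number of list genes at least 2 times higher, without a UMI minimum, is written in each cell. Layer 5 extratelencephalic markers are raised in clusters 1, 2, 4 and 5, subiculum markers in cluster 2 and, with fewer genes, in clusters 4 and 5, and markers of non-neuronal cells in cluster 8. The GABAergic list in cluster 3 is high through Erbb4 alone, and the subiculum sums in clusters 2, 4 and 5 are mostly Fn1.

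Cluster 8 went against the label. Its nuclei had a median of 7290 UMIs, against medians of 24902 to 35767.5 in the other 7 clusters. Of the list genes for other cell types, 10 of 10 for astrocytes, 11 of 12 for GABAergic neurons, 7 of 10 for oligodendrocytes and 7 of 10 for microglia were at least 2 times their level in the other gated nuclei. No UMI minimum or share over all genes goes with these counts. The cluster sums to only 190964 UMIs, so single calls can rest on few UMIs. The summed list levels were 4.01, 6.47, 3.14 and 3.90 times those of the other gated nuclei, in the same order. Sst, Slc1a3 and Apoe, which mark different cell types, were all among its leading genes. Whether these 15 barcodes hold several nuclei or free RNA was not tested, and values without them are given where they change a result.

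Members overlapped with nuclei chosen in the same way by genes that lead other glutamatergic groups. With Reln alone as the rule gene, 485 gated nuclei passed and 121 of them were members, which is 45.1% of members and 24.9% of the Reln set. These were mostly in cluster 1 (48), cluster 3 (33) and cluster 6 (22), with 0 in cluster 2. The Otof and Smoc2 set shared 18 nuclei with the members (6.72% of members), and the sets of Rorb and Rspo1, Cobll1 and Thsd7b, Htr2c and Dpp4, Foxp2 and Syt6, and Sntb1 and Hmga2 shared 2 to 10.

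Over 12647 genes with at least 200 UMIs in the gated nuclei, 149 (1.18%) were at least 2 times higher in members than in the other gated nuclei in both libraries, and 357 (2.82%) were at least 2 times lower in both. The median gene was at -0.056 on the log2 scale in vehicle and -0.078 in OLE. Since all these nuclei entered the rule, the counts describe the members and are no test.

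Beside the rule genes, and among genes with at least 500 UMIs in members, the largest excess in the library where it was smaller was that of Gm2115, with 290 UMIs in vehicle members and 245 in OLE members, or 67.8 and 64.9 CPM. It was 18.4 times higher than in the other gated nuclei in vehicle and 9.95 times in OLE. Gm2115 was also a leading gene of cluster 2, at 245 CPM there against 33.9 in the other members. Fn1, an extracellular matrix protein, was 6.30 and 7.77 times higher, but as given above it came mainly from cluster 2. Rin2, which regulates endocytosis, was 5.69 and 5.70 times higher. Kctd8, an auxiliary subunit of GABA-B receptors, had 1298 and 1020 UMIs and was 5.40 and 4.82 times higher. Ndst3, of the same enzyme family as Ndst4, was 4.45 and 3.86 times higher, at 584 and 515 CPM. Dach1 (7.92 and 4.45 times) and Gfra1 (6.46 and 3.80 times), a receptor for GDNF family ligands, were leading genes of clusters 6 and 2. The other genes named by the same rule were Gm6260, Gm2164, 6430573F11Rik, Reln, Pde11a, Adamts2, Parm1 and Tanc1, all between 3.43 and 7.55 times higher in both libraries. Of these, Reln and Pde11a were leading genes of clusters 3 and 5. Gm2164, like Gm13601 among the lower genes, is annotated as an antisense gene, and whether counting used the strand is not given in the sources used here.

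Among the genes lower in members (at least 500 UMIs in the other gated nuclei), 1700047F07Rik had no UMI in members of either library and 307 and 261 UMIs in the other gated nuclei. Taking 3 counts per library as the floor, it was at least 11.5-fold lower in vehicle and at least 8.30-fold lower in OLE. Sema5b, an axon guidance ligand, had 13 and 9 UMIs in members and was 7.80 and 10.0 times lower. Rai14, an actin-binding protein, had 45 and 25 UMIs and was 6.41 and 9.82 times lower. Fap, a cell surface protease, had 15 UMIs in each library and was 7.95 and 5.94 times lower. Arhgap25, Fermt1, Gm13601, Gm765, Cdc14a and Gm38642 completed the 10 lowest, with 2 to 20 UMIs per library in members.

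Of the 12 layer 5 extratelencephalic genes, 10 passed the filter, and 8 were at least 2 times higher in members in both libraries with none lower, against 1.18% higher and 2.82% lower over all genes. Bcl6, a transcriptional repressor, was 6.96 and 6.81 times higher, at 58.0 and 64.9 CPM. Bcl11b was 3.22 and 3.21 times higher, Fezf2 2.83 and 3.11 times, and Pou3f1 3.54 and 3.30 times. Tcerg1l, Npr3, Gprin3 and Parm1 made up the rest, between 2.52 and 3.73 times higher. Tcerg1l was highest in cluster 3, at 138 CPM, and was at 8.06 in cluster 2, against 26.8 in the other gated nuclei. Nefh, a neurofilament, was 1.47 and 1.23 times higher, on 14 and 17 UMIs.

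Of the 5 subiculum genes, 4 passed and 3 were higher in both libraries (1.18% of all genes), with Nts 10.0 and 6.50 times higher on 55 and 75 UMIs. Of 8 layer 6 corticothalamic genes, 5 were at least 2 times lower in both libraries (Foxp2, Syt6, Tle4, Sulf1 and Hs3st4), against 2.82% of all genes, and none higher. Cux2, a marker of upper layers, was 4.29 and 4.60 times lower, at 37.4 and 35.0 CPM in members against 161 in the other gated nuclei of both libraries. Of 30 cortical transcription factors, 5 were higher (Fezf2, Bcl11b, Bcl6, Pou3f1 and Etv1), against 1.18% of all genes. Lower were 7, against 2.82% of all genes, among them Tbr1, Cux1, Cux2, Rorb, Foxp2 and Tle4. This list is not a separate observation, since Fezf2, Bcl11b, Bcl6 and Pou3f1 are also extratelencephalic list genes. Foxp2 and Tle4 are also corticothalamic list genes.

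The relatives of the rule genes mostly stayed near the level of the other gated nuclei. Over all genes, 1.18% were at least 2 times higher in members in both libraries and 2.82% at least 2 times lower. Of the 12 remaining genes around Stac and the L-type calcium channels that passed the filter, 1 was higher, Cacna2d2, an auxiliary channel subunit, at 3.45 and 2.80 times. Cacna1c, the main L-type pore of brain, was at 698 CPM in vehicle members and 711 in the other vehicle nuclei, and at 727 and 730 in OLE. Stac2 was 1.249 and 1.093 times higher. Cacna1h, a T-type calcium channel pore, was 3.91 and 3.84 times higher, the 1 gene of 6 other calcium channel pores past the fold. Of 19 heparan sulfate synthesis genes, Ndst3 and Sulf2 (2.48 and 2.30 times) were higher, and Hs3st4 and Sulf1 were lower. None of 19 genes of malignant brain tumor domain and Polycomb proteins passed the fold in either direction. Of 9 other axonemal dynein heavy chains, Dnah6 was 3.29 and 5.03 times higher, on 28 and 36 UMIs.

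Among potassium channel genes, Kcnn2, a small-conductance calcium-activated channel, was 2.13 and 2.29 times higher. Kcnh5 was 4.37 and 6.07 times lower, and Kcnc1, which supports fast spiking, was 2.75 and 2.25 times lower. Of 32 axon guidance genes, 4 were higher, against 1.18% of all genes, and none lower. Robo1 was 2.78 and 2.90 times higher, Ntng1 (netrin-G1) 2.62 and 2.60 times, the netrin receptor Unc5c 2.28 and 2.23 times, and the semaphorin receptor Nrp1 2.04 and 2.03 times. Some clusters lay below the other gated nuclei. Robo1 was at 54.0 CPM in cluster 2 and 569 in cluster 4, against 633. Nrp1 was at 5.94 to 131 CPM in clusters 3, 6, 7 and 8, against 164.5. Unc5c was at 372 in cluster 5, against 549, and Ntng1 at 377 in cluster 8, against 402. Grik3, Grik4 and Grm3 were lower among 23 glutamate receptor genes, against 2.82% of all genes, with Grm3 at 3.27 and 3.14 times lower. None of 12 GABA-A receptor genes passed the fold. Adra1a, an alpha-1 adrenergic receptor, was 2.35 and 3.07 times higher, while the muscarinic receptor Chrm2 was 4.39 and 7.30 times lower.

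The genes most like the rule genes over the gated nuclei, each thinned to 6000 UMIs, were Ntng1, Robo1, Nkain3, Fam19a1 and Ndst3. Their Spearman correlations with the mean z of the rule genes were 0.28, 0.27, 0.26, 0.24 and 0.23 over 3844 nuclei, among 9397 candidate genes (seen in at least 5% of these nuclei). The nuclei share 2 libraries, and these values are a description.

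Within members, OLE and vehicle were compared over 5443 genes with at least 200 UMIs in members. At least 1.5 times higher in OLE were 102 genes (1.87%), and at least 1.5 times lower were 38 genes (0.698%). The median gene was at 0.026 on the log2 scale, and at 0.027 in the other gated nuclei. The surplus of higher over lower genes depended on the scaling, since with TMM factors the counts were 70 and 52. The makeup of the members also moved with the ratios. When the 8 clusters were given the same weight in both libraries, 71 of the 102 and 22 of the 38 genes stayed past the fold. When the single nucleus with the most UMIs of a gene was left out, 81 and 23 stayed. In the other gated nuclei, 42 of the 102 and 0 of the 38 genes were also past the fold.

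Among genes with at least 300 UMIs in members, Adarb2, an RNA-editing family member, had the highest ratio, with 117 UMIs in vehicle and 323 in OLE members and a log2 ratio of 1.64 (1.34 to 1.96). However, 168 of the 323 UMIs came from 1 nucleus, and without it the ratio was 0.60. Gm32647, a long noncoding RNA that leads cluster 7, had 415 UMIs in vehicle and 866 in OLE and a ratio of 1.24 (1.07 to 1.41). Within cluster 7 it was at 2017 CPM in vehicle and 1415 in OLE. It was lower in OLE also in clusters 2 (21.9 and 13.9 CPM) and 4 (75.5 and 23.5), but higher in OLE in the other 5 clusters, from 4.50 to 346 CPM in cluster 5 and from 10.4 to 97.6 in cluster 1. With clusters in the same mix its ratio was 0.26, and without the 1 nucleus with the most of its UMIs it was 1.01. In the other gated nuclei Gm32647 was at -0.0109 and Adarb2 at 0.78.

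Of the other 8 of the 10 highest genes with at least 300 UMIs, only Apoe was among the 10 leading genes of a cluster. Cst3, the protease inhibitor cystatin C, had 151 UMIs in vehicle and 356 in OLE, a ratio of 1.42 (1.14 to 1.70). Zbtb20, a transcription factor, had 321 and 667 UMIs, a ratio of 1.24 (1.04 to 1.43). For Zbtb20, 1 OLE nucleus held 117 of the 667 UMIs, and without it the ratio was 0.97. Cck, the neuropeptide cholecystokinin, had 173 and 333 UMIs, a ratio of 1.12 (0.85 to 1.40), and was found in 86 of 135 vehicle and 111 of 133 OLE members. Hspa8, a cytosolic chaperone, had 224 and 413 UMIs, a ratio of 1.06 (0.82 to 1.30), in 97 and 117 members. Fth1, which stores iron, was at 1.17 (0.88 to 1.46), the ubiquitin gene Ubb at 1.13 (0.82 to 1.45) and the tetraspanin Cd81 at 1.252 (0.90 to 1.62). Beside these, the ratio in the other gated nuclei was 0.99 for Cst3, 1.23 for Zbtb20, 1.12 for Cck, 1.05 for Hspa8, 0.92 for Fth1, 1.03 for Ubb and 0.90 for Cd81. Whether members differ from the other gated nuclei in these ratios was not tested.

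Apoe, the lipid carrier made mostly by astrocytes and microglia, had 132 UMIs in vehicle and 245 in OLE members, a ratio of 1.07 (0.76 to 1.39). Without cluster 8 it was 0.77, and in the other gated nuclei it was 1.23. For Apoe, 1 OLE nucleus held 42 of the 245 UMIs, and without it the ratio was 0.81. Summed marker levels of other cell types in vehicle and OLE members were 501 and 474 CPM for the 10 astrocyte genes, 63.4 and 86.1 for the 10 microglia genes, 191 and 201 for the 10 oligodendrocyte genes, 24.6 and 34.4 for the 8 oligodendrocyte precursor genes, 10.5 and 9.01 for the 10 endothelial and mural genes, and 368 and 356 for the 12 GABAergic genes. The genes on these lists at 0 in members were Cldn5, Abcc9 and Kcnj8 in both libraries and Ly6c1 in OLE. The part of RNA from other cells in the Apoe and Cst3 ratios was not tested.

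Of the 10 genes with the lowest ratios among those with at least 300 UMIs, 5 were among the leading genes of a cluster. Olfm3, a secreted olfactomedin, had 316 UMIs in vehicle and 100 in OLE members, a ratio of -1.48 (-1.82 to -1.15), and is among the leading genes of cluster 4. In cluster 4 alone it had 184 and 24 UMIs, or 239 and 80.7 CPM. Npsr1, the neuropeptide S receptor, had 543 and 201 UMIs, a ratio of -1.25 (-1.50 to -1.02). In cluster 4 it was at 523 and 195 CPM, whereas in cluster 2 it was at 222 and 187. Vwc2l had 301 and 114 UMIs, a ratio of -1.22 (-1.54 to -0.91). For Npsr1, 1 vehicle nucleus held 96 of 543 UMIs, and without it the ratio was -0.99. For Vwc2l, 1 vehicle nucleus held 59 of 301, and without it the ratio was -0.92. With clusters in the same mix the ratios were -1.09 for Olfm3, -0.83 for Npsr1 and -0.76 for Vwc2l, and in the other gated nuclei -0.0327, -0.0516 and -0.20. Cluster 4 has 10 OLE nuclei, and their median depth was 19976 UMIs against 38473.5 in its 18 vehicle nuclei, so these levels rest on few nuclei. Since these genes also define cluster 4, its size and their levels are not separate evidence.

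Pkib, an inhibitor of protein kinase A, had 313 UMIs in vehicle and 170 in OLE, a ratio of -0.70 (-0.98 to -0.43). For Pkib, 1 vehicle nucleus held 53 of 313 UMIs, and without it the ratio was -0.45, inside 1.5-fold. Pkib leads cluster 3, where it was at 317 and 268 CPM, and with clusters in the same mix its ratio was -0.17. Sema3a, which also leads cluster 3, went from -0.59 (-0.82 to -0.36) to 0.00622 in the same way. Alk, a receptor tyrosine kinase, had 279 and 132 UMIs, a ratio of -0.90 (-1.21 to -0.60), and in cluster 1, which it leads, it was at 202 and 74.5 CPM. Its ratio in the same mix was -1.33. Gpc6, a heparan sulfate core protein, had 1265 and 549 UMIs, a ratio of -1.02 (-1.17 to -0.88), and -1.07 in the same mix. Pde4b, which breaks down cyclic AMP, had 4168 and 2206 UMIs and a ratio of -0.74 (-0.81 to -0.66), and -0.59 in the same mix. Its median was 15 UMIs per vehicle nucleus and 10 per OLE nucleus, not corrected for the lower depth of OLE members. Pde4b was higher in OLE in clusters 1 (384 and 428 CPM) and 8 (510 and 782). In the other clusters it was lower, as in cluster 5 (2359 and 968). The remaining genes were Unc13c at -1.004, Ptprm at -0.95 and Lhfp at -0.90. For Unc13c, 1 vehicle nucleus held 105 of 402 UMIs, and without it the ratio was -0.58.

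**Figure D4:**
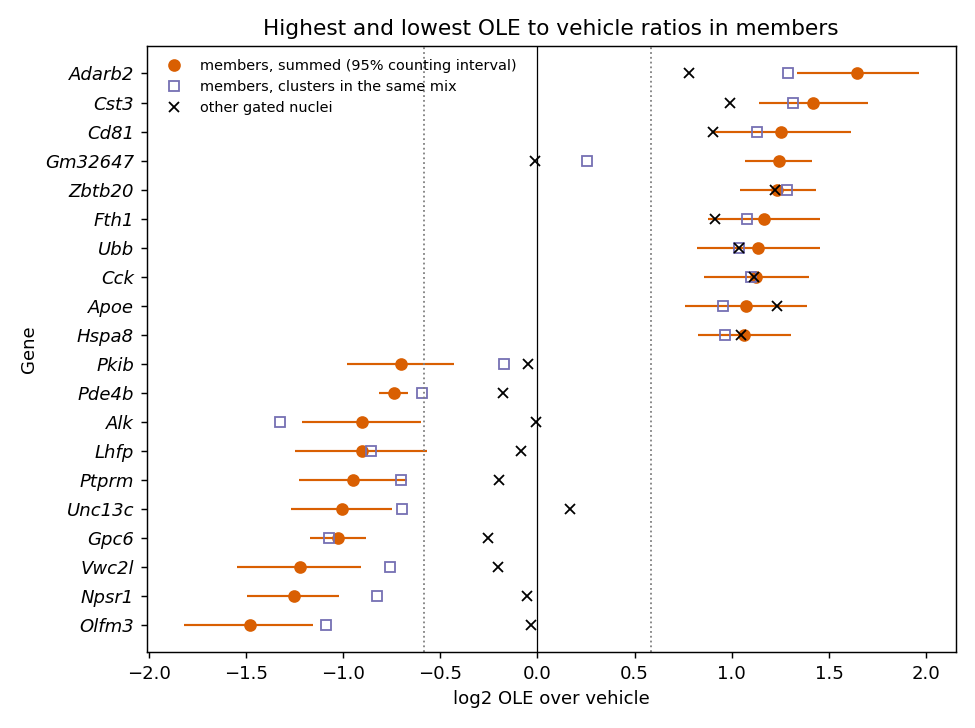
Log2 ratio of OLE over vehicle for the 10 highest and 10 lowest genes with at least 300 UMIs in members, with 95% counting intervals (orange), the ratio with clusters in the same mix (open squares) and the ratio in the other gated nuclei (crosses). Dotted lines mark 1.5-fold. For Gm32647 and Pkib the squares lie inside the dotted lines, at 0.26 and -0.17.

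Of 26 genes of protein folding in the endoplasmic reticulum (ER), 12 passed the filter. All 12 were above 0 in members, as were 3021 of all 5443 genes tested. Their median ratio was 0.45, and 3 were at least 1.5 times higher, against 1.87% of all genes. Hspa5, the ER chaperone BiP, had 174 UMIs in vehicle and 271 in OLE, a ratio of 0.82 (0.54 to 1.102). Calr, the calcium-binding chaperone calreticulin, had 210 and 323 UMIs, a ratio of 0.80 (0.55 to 1.06). Pdia6, a disulfide isomerase, was at 0.60 (0.27 to 0.92). Atp2a2, the calcium pump of the ER, was at 0.23 (0.0846 to 0.37), on 774 and 801 UMIs. In the other gated nuclei the list median was 0.47, with Hspa5 at 0.79, Calr at 0.84 and Atp2a2 at 0.38.

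Of 26 cytosolic chaperone genes, 13 passed the filter and 1, Hspa8, was past the fold, against 1.87% of all genes. The list median was 0.35 in members and 0.26 in the other gated nuclei. Without the 15 nuclei of cluster 8 the median was 0.22. Hsp90ab1, which folds signalling proteins, was at 0.43 (0.20 to 0.66) in members, on 290 and 346 UMIs, and at 0.66 in the other gated nuclei. Only 2 of 20 ribosomal protein genes passed the filter, with a median of 0.40. The 27 long genes of synaptic adhesion, which all passed, had a median of -0.0375 in members and -0.11 in the other gated nuclei, with 7 above 0 and none past the fold.

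Of 19 genes of amyloid precursor processing and tau, 14 passed and 4 were higher, against 1.87% of all genes. These were Cst3, Apoe, Itm2b (0.84, 0.65 to 1.04) and Itm2c (0.73, 0.47 to 0.99). Itm2b and Itm2c both encode inhibitors of amyloid precursor processing. The list median was 0.23 in members and 0.22 in the other gated nuclei, where Itm2c was at 0.77. App had 2389 UMIs in vehicle and 2505 in OLE, a ratio of 0.25 (0.17 to 0.33). Part of these reads may come from the transgene, since the files do not separate it from mouse App. Mapt, which encodes tau, was at 0.0177 (-0.0820 to 0.12). Both neuropeptide genes that passed the filter, Cck and Vgf (0.80, 0.55 to 1.06), were past the fold, against 1.87% of all genes. The median of Cck and Vgf was 0.963 in members and 0.959 in the other gated nuclei. The cannabinoid receptor gene Cnr1 had 129 and 221 UMIs, a ratio of 0.96 (0.64 to 1.28), and 0.31 in the other gated nuclei.

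Transcripts encoded in the mitochondrial genome were the list whose median lay farthest below 0 among the response lists. All 9 that passed the filter were lower in OLE members, from -0.56 to -0.22 with a median of -0.32, and none reached 1.5-fold. Over all 5443 genes tested, 3021 were above 0. mt-Co1, a subunit of the respiratory chain, had 1916 UMIs in vehicle and 1320 in OLE, a ratio of -0.36 (-0.46 to -0.26). In the other gated nuclei the list median was 0.074 and mt-Co1 was at 0.0736. These transcripts lie outside the nucleus, and their share of UMIs was a median of 0.200% in vehicle members and 0.201% in OLE members, against 0.226% and 0.280% in the other gated nuclei. The median share per member was thus nearly the same in both libraries, unlike the summed counts. Which nuclei the lower sums rest on was not tested. Nuclear-encoded respiratory chain genes had a median of 0.083 over 10 genes that passed.

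**Figure D5:**
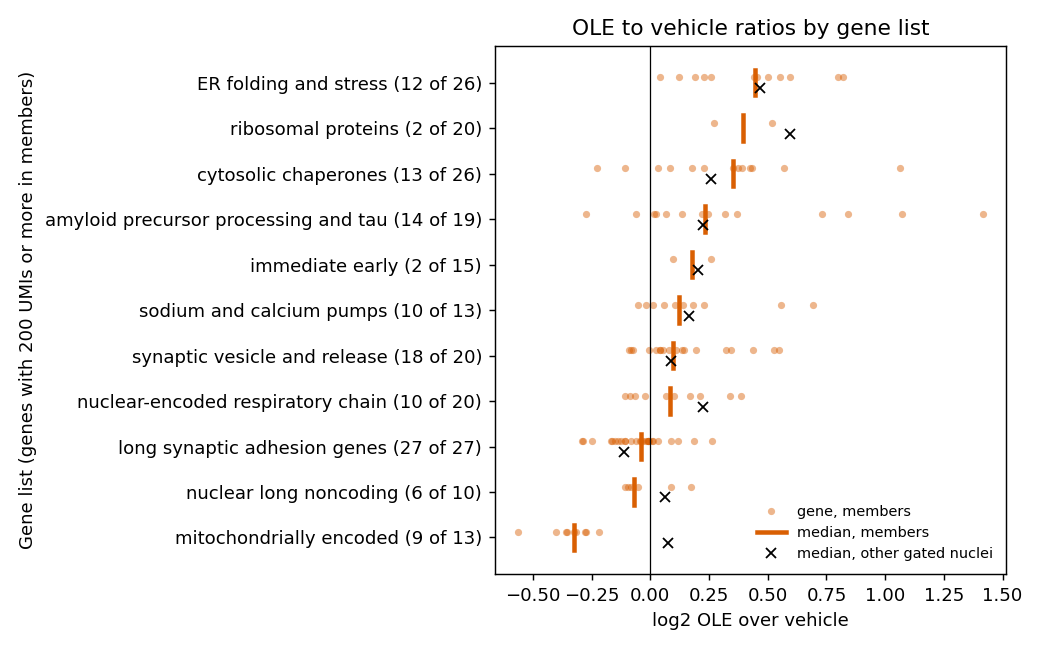
Log2 ratio of OLE over vehicle for genes of the response lists with at least 200 UMIs in members (points), with the list median in members (orange bar) and in the other gated nuclei (cross). The ER list has its median at 0.45 in members and 0.47 in the other gated nuclei, while the mitochondrially encoded list has -0.32 and 0.074.

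Of the 8 layer 5 extratelencephalic genes that passed the filter in members, none was past 1.5-fold, with a median of 0.16 and a range from -0.29 to 0.27. Fezf2 had 178 UMIs in vehicle and 176 in OLE, a ratio of 0.16 (-0.15 to 0.47), and Bcl11b 1024 and 1004, a ratio of 0.15 (0.0240 to 0.28).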

How the data were processed

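Per the labels and the study's methods, the authors isolated nuclei from frozen entorhinal cortex, prepared 10X 3′ v3 libraries, aligned reads to the mm10 pre-mRNA reference with Cell Ranger (3.0.1 in the submitters' processing notes, which also name Seurat 4.0.4), and deposited unnormalized UMI counts for 31053 genes. Doublet removal is listed among the Seurat steps, with no caller given, and whether it preceded the deposit is not stated. No column of another sample was present.

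For this work, counts were scaled per 10000 UMIs, log1p transformed and z-scored per gene over gated nuclei. UMIs were summed per library and set and expressed per 1000000 (CPM). Log2 ratios had no pseudocount, and a count of 0 was set to 3. Intervals are 95% exact Poisson (levels) and Clopper-Pearson (shares, ratios) intervals, and the difference of shares combines both exact intervals. Filters were 200 UMIs per gene. Clusters used genes found in at least 14 members, standardized values limited to 5 either way, and 10 components, and leading genes were ranked with 10 CPM added. Genes named were the rule genes, the 15 with the largest and 10 with the smallest member ratios agreeing in both libraries (at least 500 UMIs), the 10 highest and 10 lowest OLE ratios (at least 300 UMIs), list genes, and Calr, Atp2a2, Hsp90ab1 and Hspa5. Genes outside these rules, such as Sema3a as a leading gene of cluster 3, were chosen after their values were seen. Some list genes are not reported here. The members, lists and clusters were chosen with earlier results of these data known. Gene positions came from GENCODE vM21 (99.9% of identifiers matched). Tables were made with pandas 2.3.3 and scipy 1.17.1 (Python 3.11.15, numpy 2.4.6) and plots with matplotlib 3.10.9. The steps were tested on simulated data. The alternatives are given in the closing section. The vehicle library held 6745 nuclei with 70845739 UMIs, and the OLE library 6173 with 69485537.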

Additional observations from a re-analysis of the deposited data

How the results depend on the processing

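Of 202 values recomputed under other settings, 136 moved by less than the spread set for them and 66 moved by more. That spread was 1.5-fold for counts of genes and was based on counting intervals for the other values. Reversal was checked only for the 60 values of named OLE ratios, of which 0 reversed. The sign of the share difference turned at the lower threshold, and this was counted as moved. The cause was not tested where none is given. The share difference of -1.43 points was 0.263 at a mean z of 0.75, and -7.53 without nuclei holding over 5 UMIs of other cell types, a setting that left 7 vehicle and 3 OLE members. That setting also left 1003 genes for the member comparison, with 30 higher and 88 lower, and 117 genes for OLE against vehicle, with 10 higher and 15 lower. The 357 genes lower in members were 583 with a minimum of 50 UMIs and 231 with 500. The 102 genes higher and 38 lower in OLE members were 184 and 20 at a mean z of 0.75, 377 and 254 after thinning to 6000 UMIs, 63 and 61 with median of ratios factors, 70 and 52 with TMM factors, 670 and 206 with a minimum of 50 UMIs, and 21 and 16 with 500, where fewer genes were tested. The ER list median of 0.45 was 0.38 after thinning, 0.37 without the top 5% of UMIs, and 0.35 with median of ratios factors or a minimum of 500 UMIs. The cytosolic chaperone median of 0.35 was 0.21 at a mean z of 0.75, 0.16 at the higher threshold, 0.10 after thinning, 0.23 with at least 3 rule genes detected, 0.25 with median of ratios factors, 0.57 with a minimum of 500 UMIs and 0.22 without cluster 8. The ribosomal median of 0.40 was 0.75 at a mean z of 0.75 and 0.66 with a minimum of 50 UMIs. The synaptic adhesion median of -0.0375 was -0.0922 at a mean z of 0.75, -0.0758 at the higher threshold, -0.0532 with a gate of 4000 UMIs, -0.0601 with z-scores within each library, -0.00536 after thinning, -0.0528 without the top 5% of UMIs, -0.0896 without nuclei holding over 5 UMIs of other types, -0.10 with TMM factors, -0.13 with median of ratios factors, -0.0563 with nuclei weighted equally, -0.0190 without cluster 8 and -0.0445 with clusters in the same mix. Leaving out cluster 8 and setting clusters in the same mix were chosen after seeing the data. Lists with no gene left under a setting have no value there. No paired analysis was possible because each condition has 1 library, which also means that no replicate could be left out.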
